A study of Mus musculus with 4 samples.

Results

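The genes described here are 10 transcripts of the ATF4 stress response and of serine and one-carbon synthesis: Atf4, Ddit3, Trib3, Chac1, Sesn2, Asns, Psat1, Phgdh, Shmt2 and Mthfd2. They were chosen by gene symbol, and each of the 10 was found once among the 27998 genes of all 4 count matrices. They were measured by droplet-based single-cell RNA sequencing of the 3′ end of transcripts (10x Genomics) in CD45+ cells, that is leukocytes enriched with antibody-coated beads. They came from the tibialis anterior of the lower leg, which had been injured with cardiotoxin, a venom toxin that kills muscle fibres, in male mice aged 8 to 12 weeks, and cells were taken at 2 or 4 days post injury (dpi2 and dpi4). In the study, the control mice were Bach1 fl/fl and the KO mice were Bach1 fl/fl with a Lyz2-Cre transgene, so that the mice of both groups carried the floxed allele, with loxP sites around exon 4 of Bach1. The Lyz2 promoter drives Cre in monocytes, macrophages and neutrophils, and T cells and NK cells are not among its targets. BACH1 is a heme-binding repressor that occupies the same DNA elements that NRF2 activates. The question here was how far transcripts outside a fixed list of BACH1 and NRF2 targets differed between KO and control. That a gene is outside the list does not show that BACH1 and NRF2 do not act on it. There was 1 library per group, so no test was run, no spread between animals was measured, and every interval is a 95% interval that covers counting error only.

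ATF4 is the transcription factor of the integrated stress response. Kinases that sense amino acid shortage, unfolded protein, heme deficiency or double-stranded RNA phosphorylate the initiation factor eIF2α, which lowers general protein synthesis and raises translation of the Atf4 mRNA, so that an RNA level is not a measure of ATF4 protein. ATF4 then activates genes for amino acid synthesis and uptake, among them the enzymes that make serine and feed its carbon into mitochondrial folate metabolism, and genes of the stress response itself. The cystine importer gene Slc7a11 is a known target of both ATF4 and NRF2, and is repressed by BACH1, so it was followed beside the 10 genes.

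The RefSeq promoters (GRCm38.p6, from 250 bases before to 50 bases after the start) of 10 of the 10 genes were searched for the letters TGATGNAA, the core of the C/EBP-ATF response element that ATF4 binds, and TGACNNNGC, the core of the antioxidant response element that NRF2 and BACH1 bind. Both strands were read, and the 2 motifs overlapped in no window shown. TGATGNAA was present in Chac1, Trib3 and Asns, and in Slc7a11 at 2 positions, against 3.97% of 32851 mouse promoters. TGACNNNGC was present in Phgdh, Sesn2 and Asns, against 12.4% of the same promoters, and was not found in the Slc7a11 window. Neither string was found in the windows of Atf4, Ddit3, Psat1, Shmt2 and Mthfd2, which says only that these letters are not there. The RefSeq windows of Psat1 and Mthfd2 lie inside the longer GENCODE spans given near the end. The 5′ ends of those spans were not searched. The matches are printed 5′ to 3′ on the strand of the gene, with the motif in capitals, to show which of the genes hold an ATF4-type core, an antioxidant-type core or, in Asns, both.
Chac1, chr2:119351039-119351066, plus strand, motif on the minus strand 193 bases before the start: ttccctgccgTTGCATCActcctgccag
Trib3, chr2:152344029-152344056, minus strand, motif on the opposite strand 15 bases after the start: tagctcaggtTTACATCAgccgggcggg
Asns, chr6:7693215-7693242, minus strand, motif on the gene's strand 23 bases before the start: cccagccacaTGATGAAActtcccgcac
Slc7a11, chr3:50443662-50443689, minus strand, motif on the gene's strand 66 bases before the start: ctcatgtggcTGATGCAAacctggagaa
Slc7a11, chr3:50443643-50443670, minus strand, motif on the opposite strand 47 bases before the start: cctggagaatTTGCATCAtcatgcagcc
Phgdh, chr3:98340004-98340032, minus strand, antioxidant-type core on the opposite strand 53 bases before the start: gcccggggagGCGGAGTCAgcagagttta
Sesn2, chr4:132510474-132510502, minus strand, antioxidant-type core on the gene's strand 36 bases before the start: cgcagcgggcTGACAGAGCcgggcgagcg
Asns, chr6:7693363-7693391, minus strand, antioxidant-type core on the opposite strand 172 bases before the start: tatcctgcctGCAGTGTCAcagcacctta
A match describes the letters of a window and is not evidence of binding.

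The matrices held raw counts of unique molecular identifiers (UMIs), 1 for each captured RNA molecule, and 17011 cells were kept, between 3433 and 5721 per library, with median depths of 10702 to 15157 UMIs. Lyz2 stood at 9388 and 15844 CPM (UMIs of a gene in 1000000 UMIs) in the control libraries and at 17.5 and 21.6 CPM in the KO libraries, while Bach1 stood at 187 to 217 CPM in all 4. The counts come from the 3′ end of transcripts, and where the Bach1 reads lie relative to the floxed exon was not examined. The Bach1 level therefore does not check the deletion. Cells were grouped in 25 clusters, and clusters were named from fixed markers as macrophages (8726 cells in all), monocytes (3693), neutrophils (1615), dendritic cells (1290) and T or NK cells (349). Monocytes at dpi4 (48 and 61 cells) and neutrophils in the KO library at dpi4 (35 cells) were few. Cluster 13, led by Il1f9, Mirt1 and Irg1, had neutrophil markers but stayed unnamed by the rule and was outside the class. Cluster 14, led by the muscle genes Acta1, Mylpf and Myl1, held the leukocyte gene Ptprc at 672 CPM and was also left outside.

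Atf4 was detected in every class and had its highest levels in neutrophils and monocytes. In macrophages Atf4 stood at 180 CPM in the control and 199 CPM in the KO library at dpi2, and at 119 and 121 CPM at dpi4. In monocytes it stood at 221 and 232 CPM at dpi2 and at 204 and 231 CPM at dpi4. Neutrophils of the control library had 231 CPM (208 to 257) at dpi2 and 288 CPM at dpi4, and those of the KO library 213 CPM (197 to 230) and 222 CPM. Dendritic cells held 144 to 162 CPM and T or NK cells 152 to 177 CPM over the 4 libraries. In the control library at dpi2 the order was neutrophils, monocytes, macrophages, T or NK cells and dendritic cells, and the intervals overlapped for all pairs of neighbours except monocytes and macrophages.

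Ddit3, which encodes the transcription factor CHOP, and Chac1, which encodes an enzyme that breaks down glutathione, had their highest levels in neutrophils. Ddit3 in neutrophils stood at 141 CPM in the control and 99.9 CPM in the KO library at dpi2, and at 145 and 60.5 CPM at dpi4. In macrophages Ddit3 stood at 32.7, 23.9, 34.1 and 34.1 CPM in control dpi2, KO dpi2, control dpi4 and KO dpi4. The neutrophil interval lay above the macrophage interval in 3 of the 4 libraries, and in KO dpi4, with 6 neutrophil UMIs, the intervals overlapped (22.2 to 132 CPM in neutrophils). Chac1 in neutrophils stood at 48.4 CPM (74 UMIs), 24.8 CPM (74 UMIs), 51.1 CPM (19 UMIs) and 30.3 CPM (3 UMIs) in the same order. Macrophages, which had more UMIs in all than neutrophils in each library, held 2, 4, 9 and 3 Chac1 UMIs, a level of at most 0.161 CPM. T or NK cells held 0 Chac1 UMIs in all 4 libraries, which allows up to 3.75 CPM in the largest of them. In cells thinned to 2000 UMIs, 7.14% of neutrophils in the control and 5.33% in the KO library at dpi2 had a Chac1 UMI (9.22% and 7.41% without thinning), against 0.0521% and 0% of macrophages (0.101% and 0.367% without thinning). At the thinned depth, a count of 0 allows up to 0.283% of cells with a UMI.

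Sesn2, which encodes sestrin 2, a leucine sensor and inhibitor of mTORC1 that responds to several stresses, was also highest in neutrophils at dpi2. It stood there at 40.5 CPM in the control and 67.4 CPM in the KO library at dpi2, and at 40.4 CPM (22.6 to 66.6, 15 UMIs) and 40.3 CPM (11 to 103, 4 UMIs) at dpi4, where the intervals overlapped those of dendritic cells. In macrophages Sesn2 stood at 12.9 CPM and 8.76 CPM at dpi2 and at 13.5 CPM and 20 CPM at dpi4, so that the KO library was the lowest of the 4 at dpi2 and the highest at dpi4. Monocytes held 12.3 and 13.8 CPM at dpi2, and dendritic cells 18.4 to 21 CPM over the 4 libraries. Trib3, which encodes a pseudokinase that restrains ATF4 and CHOP, was close to the detection limit in leukocytes. Macrophages had 37, 10, 23 and 25 Trib3 UMIs (0.974, 0.334, 0.412 and 0.536 CPM), and T or NK cells had 0 in every library. Cluster 21, led by the vessel genes Igfbp7, Col4a1 and Rgs5 rather than by leukocyte genes, held more Trib3, 12.6 CPM.

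Phgdh, Psat1, Shmt2 and Mthfd2 had a different distribution and were lower in neutrophils than in T or NK cells at dpi2, while Asns was not. Phgdh encodes the first enzyme of serine synthesis. It stood in T or NK cells at 60 CPM (28 UMIs), 10.8 CPM (2 UMIs), 73.8 CPM (41 UMIs) and 66.3 CPM (53 UMIs) in control dpi2, KO dpi2, control dpi4 and KO dpi4. In macrophages Phgdh stood at 1.4, 0.501, 0.932 and 0.75 CPM, and both dpi2 neutrophil libraries held 0 UMIs, which allows up to 1.96 CPM in the control and 1.01 CPM in the KO library. Psat1, which encodes the next enzyme of the pathway, was at its highest in macrophages at dpi2, with 32.1 CPM in the control and 27.8 CPM in the KO library, and in T or NK cells at dpi4, with 34.2 and 31.3 CPM. At dpi4 the macrophage levels of Psat1 were 10.8 and 12.1 CPM. Neutrophils had 2 and 4 Psat1 UMIs at dpi2 and 0 in either library at dpi4. Phgdh and Psat1 thus parted in macrophages, where the first was near 1 CPM and the second was not.

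Shmt2 and Mthfd2 encode mitochondrial enzymes that take 1-carbon units from serine into the folate pool. Shmt2 in macrophages stood at 12.7 CPM and 14.1 CPM at dpi2 and at 7.35 and 8.72 CPM at dpi4, and in T or NK cells at 19.3 to 48.6 CPM over the 4 libraries. Monocytes held 4.95 and 6.86 CPM of Shmt2 at dpi2, and neutrophils 1 and 2 UMIs. Mthfd2 had its highest class level in dendritic cells, with 70.5 CPM in the control and 53.4 CPM in the KO library at dpi2 and 67.3 and 77.9 CPM at dpi4. In macrophages Mthfd2 stood at 30.7 and 25.6 CPM at dpi2 and at 12.2 and 12.8 CPM at dpi4, and in neutrophils at 7.85 and 7.04 CPM at dpi2. Asns, which encodes asparagine synthetase, was low in every class: macrophages had 91, 44, 35 and 25 UMIs (2.4, 1.47, 0.627 and 0.536 CPM), and dpi2 neutrophils had 5 UMIs in the control library, 3.27 CPM (1.06 to 7.63), and 23 UMIs in the KO library, 7.71 CPM (4.89 to 11.6). As for Trib3, the highest cluster level of Asns was in cluster 21, 22.7 CPM.

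**Figure D1:**
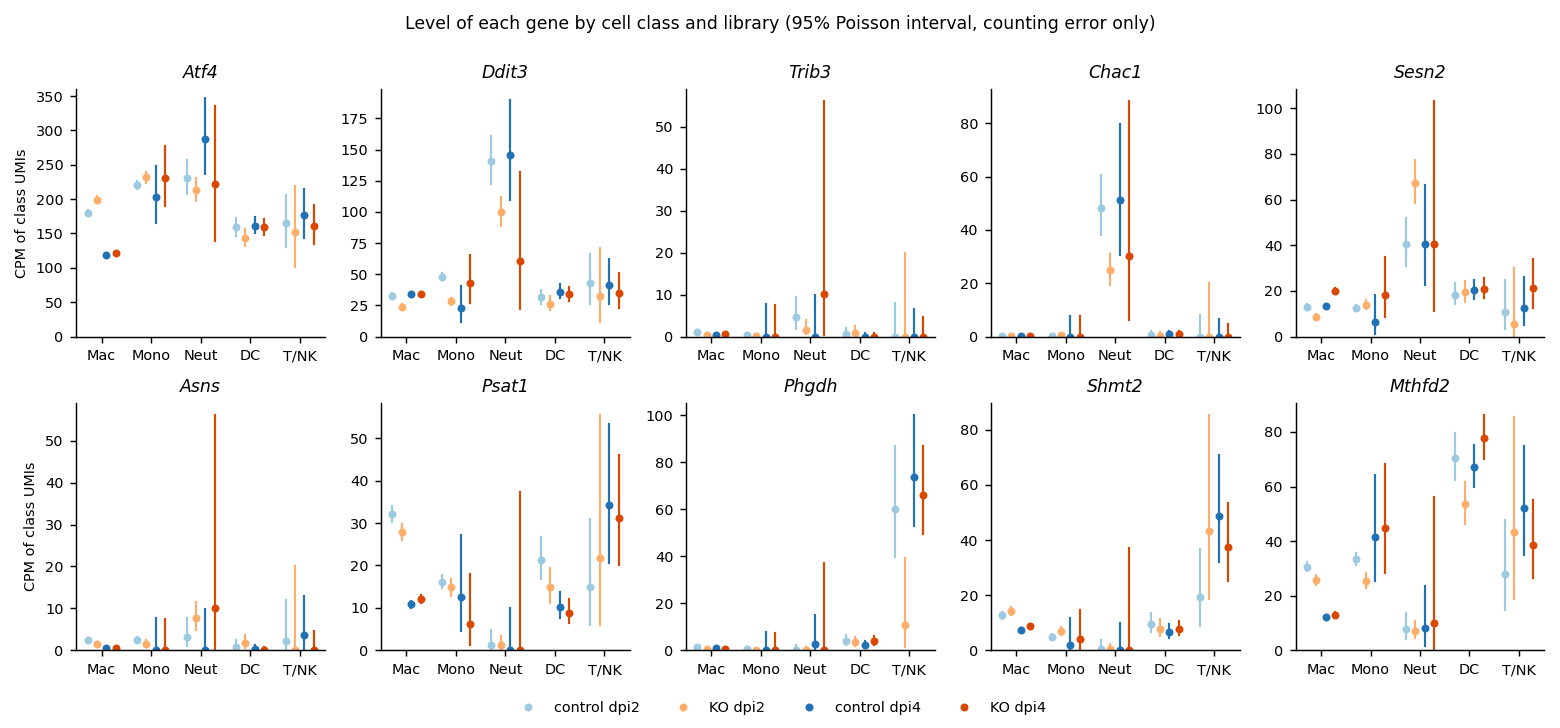
Level of each of the 10 genes (CPM, UMIs of the gene in 1000000 UMIs of the class) in macrophages (Mac), monocytes (Mono), neutrophils (Neut), dendritic cells (DC) and T or NK cells, with 1 point per library and lines for the 95% Poisson interval. Ddit3, Chac1 and Sesn2 have their highest points in neutrophils, Phgdh in T or NK cells and Mthfd2 in dendritic cells.

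The clusters resolved these patterns further. Among clusters with at least 50 cells, the 2 with the highest Ddit3 were cluster 13, with 185 CPM, and the neutrophil cluster 2, with 115 CPM. For Atf4, with the libraries pooled, cluster 13 was also the highest, with 366 CPM, and the monocyte clusters 9 and 10 had 264 and 230 CPM and cluster 2 had 225 CPM. The order below cluster 13 differed between libraries, since in the KO library at dpi2 the macrophage cluster 8 (235 CPM) stood above cluster 2 (213 CPM), and in the control library at dpi4 cluster 2 stood at 288 CPM. Clusters 13 and 2 had the lowest Psat1 (1 and 1.2 CPM) and the lowest Shmt2 (0 and 0.6 CPM). Cluster 15, led by the cell division genes Top2a, Birc5 and Hist1h1b, had Psat1 at 44.6 CPM and Mthfd2 at 52.7 CPM, with Ddit3 at 19.1 CPM, all libraries pooled. In the KO library at dpi4, Psat1 was higher in the T or NK cells of cluster 16 (37.8 CPM) than in cluster 15 (29.1 CPM). The Ccr7 and Fscn1 dendritic cells of cluster 18 held Mthfd2 at 176 CPM but Psat1 at 5 CPM. Among macrophage clusters with the libraries pooled, Sesn2 was highest in cluster 5, led by the iron exporter gene Slc40a1 with Vcam1 and Il18bp, at 26.9 CPM. Most cells of that cluster came from the KO library at dpi4, and in the control library at dpi4 Sesn2 stood at 17.9 CPM in cluster 12 (Iigp1, Ifit2, Ifit3), 16.5 CPM in cluster 5 and 16.1 CPM in cluster 3 (Tmem176b, Hpgd, Cd83). Atf4 was lowest in the macrophage cluster 4, led by Txnip, Apoe and Pltp, at 73.5 CPM.

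Over 47 points, each a cluster in 1 library with at least 50 cells, the log2 levels of Ddit3 and Chac1 had a Pearson r of 0.77, Ddit3 and Sesn2 0.64, Psat1 and Shmt2 0.83, and Ddit3 and Psat1 −0.69. Without the 5 points of clusters 2 and 13, which held the highest Chac1 levels, from 7.87 to 51.1 CPM, the same values over 42 points were −0.24, 0.39, 0.74 and −0.45, so that the value for Ddit3 and Chac1 rested on those clusters. Atf4 itself had r of 0.52 with Ddit3 and −0.15 with Psat1, and of 0.07 and 0.27 without those clusters. These points share libraries and cell lineages and are not replicates, so the values are descriptive. By the same measure over all 47 points, among 8140 genes, those closest to the mean of Atf4, Ddit3, Trib3, Chac1 and Sesn2 were Hcar2 (r = 0.93), 2810474O19Rik (0.92), Hdc (0.91), Irg1 (0.90) and Rbm38 (0.89). Those closest to the mean of the 5 enzyme genes were Dazap1 (0.86), Mthfd1l, which encodes another mitochondrial folate enzyme (0.83), Serbp1 (0.83), Anp32b (0.83) and Ptcd3 (0.82). In the first list, Irg1 is a leading gene of cluster 13 and Hdc is one of the fixed neutrophil markers. Neither list was computed without clusters 2 and 13.

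**Figure D2:**
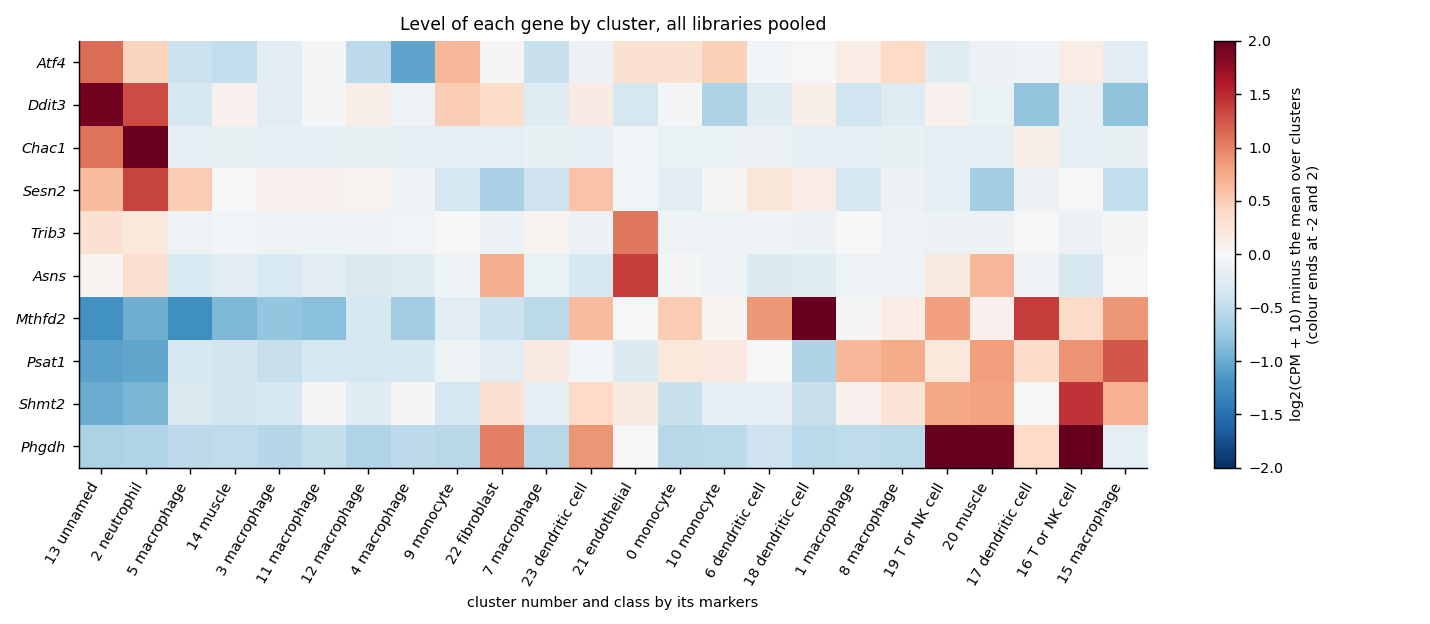
Level of each gene in the 24 clusters with at least 50 cells, labelled by number and class, all libraries pooled, as log2(CPM + 10) minus the mean over clusters; clusters were ordered from high Ddit3 and Sesn2 on the left to high Psat1, Shmt2 and Mthfd2 on the right. The neutrophil cluster 2 and cluster 13 combine high Ddit3 with low Psat1, Shmt2 and Mthfd2, and the dividing cluster 15 has the opposite. Asns departs from this, at 5.82 CPM in cluster 2 and 2.5 CPM in cluster 15.

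The comparison of KO with control asked whether these genes stood higher in the KO libraries. Beside the Bach1 genotype, these libraries differed in Lyz2, which in macrophages at dpi2 stood at 8110 CPM in control and 12.8 CPM in KO. The 2 differences cannot be told apart here, and their parts in the ratios were not tested. A gene was scored where the pair of libraries held at least 50 UMIs, and it was counted as higher or lower where the ratio of KO to control was at least 1.5-fold and its interval left out 1. In macrophages at dpi2, 8 of the 10 genes were scored, 0 were higher and 2 were lower, where 5.25% of all 11117 scored genes were higher and 5.86% were lower. The 2 were Phgdh, with a ratio of 0.359 (0.188 to 0.647) on 15 and 53 UMIs, and Asns, with a ratio of 0.614 (0.418 to 0.89) on 44 and 91 UMIs. Both rested on few molecules, and for Asns the log2 ratio of −0.70 shrank to −0.16 when each cell was given equal weight. In the control library the dividing cluster 15 held 20 of the 53 Phgdh and 20 of the 91 Asns UMIs. The KO library had under 50 cells of that cluster. In cluster 8 Phgdh stood at 0.706 and 0.603 CPM (6 and 5 UMIs), and Asns at 2.12 and 1.81 CPM, in control and KO. In cluster 1 Asns was past the rule at 0.541 (0.305 to 0.926). Phgdh stood there at 1.11 and 0.334 CPM, on 27 and 6 UMIs. The 6 others lay within 1.5-fold: Atf4 1.11 (1.07 to 1.15), Ddit3 0.732 (0.667 to 0.803), Sesn2 0.679 (0.582 to 0.791), Psat1 0.869 (0.794 to 0.949), Shmt2 1.12 (0.978 to 1.28) and Mthfd2 0.834 (0.761 to 0.915). The median log2 ratio of the 8 was −0.36, against −0.01 over all scored genes. Sesn2 was just inside the limit, and Trib3, with a ratio of 0.343 (0.152 to 0.704) on 10 and 37 UMIs, was not scored.

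In the same macrophages at dpi2, Hmox1, the heme oxygenase gene that BACH1 represses, stood at 681 CPM in the control and 10423 CPM in the KO library, and Slc7a11 at 21.2 and 113 CPM. At dpi4 Hmox1 stood at 495 and 7368 CPM and Slc7a11 at 55.6 and 98.5 CPM. Both were thus higher in KO at both times, by 15.3-fold and 5.32-fold at dpi2 and by 14.9-fold and 1.77-fold at dpi4.

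In macrophages at dpi4, of the 8 genes scored, 0 were higher and 0 were lower, where 3.28% of all 11958 scored genes were higher and 4% were lower. Atf4 had a ratio of 1.02 (0.986 to 1.06), Ddit3 0.998 (0.933 to 1.07), Psat1 1.12 (0.995 to 1.26), Mthfd2 1.05 (0.943 to 1.18) and Shmt2 1.19 (1.03 to 1.36). The interval of Ddit3 thus leaves out, for counting error, a difference of more than 1.07-fold between these 2 libraries. Sesn2 had the largest ratio, 1.48 (1.34 to 1.63), just inside the limit of 1.5. Asns (0.854, 0.49 to 1.47) and Phgdh (0.805, 0.509 to 1.26) had wide intervals.

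**Figure D3:**
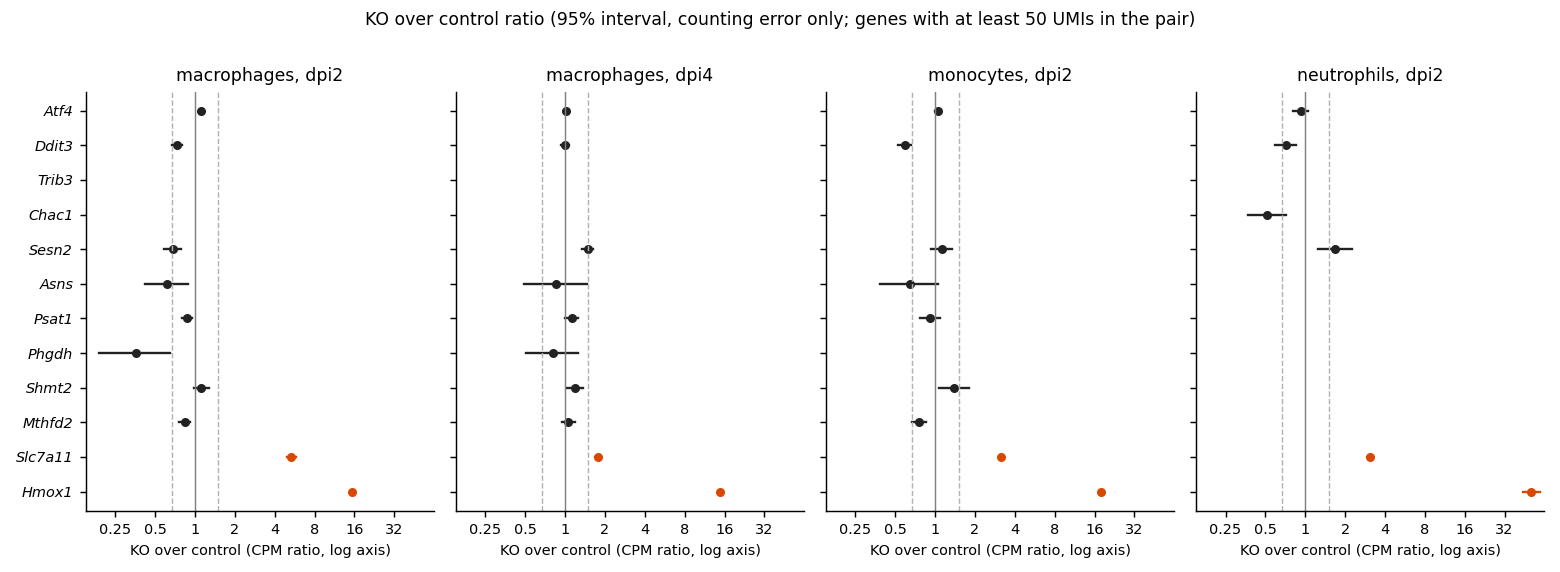
Ratio of KO to control (log axis) for each of the 10 genes with at least 50 UMIs in the pair (black) and for Slc7a11 and Hmox1 (orange), with 95% intervals for counting error; dashed lines mark 1.5-fold. In these macrophages (dpi2 and dpi4), monocytes (dpi2) and neutrophils (dpi2), the scored genes of the 10 lie between 0.359 and 1.66, while Slc7a11 lies at 1.77 to 5.32 and Hmox1 at 14.9 to 50.9.

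Within single clusters that had at least 50 cells in both libraries, Ddit3 at dpi2 was below 1 in 7 of 8 clusters and its interval was below 1 in 5 of them, with ratios from 0.711 to 1.13. One of the 5 was the neutrophil cluster 2, in a pair where the median log2 ratio of all scored genes was −0.30. The exception was cluster 13. At dpi4 Ddit3 was above 1 in 7 of 10 clusters. Sesn2 at dpi2 was below 1 in both macrophage clusters scored, at 0.725 in cluster 8 (Cd163, Lyve1, Gja1) and at 0.635 in the other, which was past the rule. At dpi4 Sesn2 was above 1 in 6 of 7 macrophage clusters, by up to 1.9-fold in cluster 5, and past the 1.5-fold rule in 3 of them, clusters 3 (1.55), 5 and 15 (1.74). In cluster 5 Sesn2 stood at 31.3 CPM in the KO and 16.5 CPM in the control library. That cluster had 717 cells in the KO and 276 in the control library, and with the control library's cluster shares the log2 ratio of Sesn2 over all macrophages at dpi4 was 0.48 in place of 0.57. Mthfd2 at dpi2 was below 1 in 6 of 6 clusters, and its interval was below 1 in 3 of them. It was past the rule in the monocyte cluster 10, at 0.639 (0.444 to 0.947). Psat1 at dpi2 was below 1 in 6 of 6, but no Psat1 interval left out 1. At dpi4 Mthfd2 was above 1 in 7 of 10 clusters, with 2.01 (1.46 to 2.75) in cluster 3, and Psat1 in 6 of 10, with 1.74 (1.16 to 2.69) in cluster 5, and no interval of either gene was below 1.

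Several library properties moved with these ratios. Macrophages had median depths of 18010 UMIs (control) and 26311.5 UMIs (KO) at dpi2, and of 16228 and 15301.5 UMIs at dpi4. The summed level of 12 early genes that tissue dissociation induces was 4324 and 5994 CPM in macrophages at dpi2 and 6839 and 6076 CPM at dpi4. Of those 12 genes, 3 were higher in KO at dpi2, among them Junb (2.16-fold) and Fosb (1.75-fold), and Hspa1b was lower (0.549), while at dpi4 Hspa1b (2.67-fold) and Hspa1a (1.54-fold) were higher. The summed neutrophil markers in macrophages were 116 and 296 CPM at dpi2 and 100 and 77.7 CPM at dpi4. The summed cell division markers in macrophages were 365 and 285 CPM at dpi2 and 285 and 304 CPM at dpi4, and the dividing cluster 15 had 122 cells in the control library at dpi2 and under 50 in the KO library. Within clusters 1 and 8 the dpi2 ratio of Psat1 was 0.982 and 0.951, against 0.869 over all macrophages. The part of these properties in the ratios was not tested.

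With every cell thinned to 2000 UMIs, Ddit3 was found in 6.46% of control and 3.77% of KO macrophages at dpi2, a difference of −2.69 percentage points, KO minus control (−4.29 to −0.993). Without thinning the shares were 37.4% and 38.6%, at the unequal depths given above. Sesn2 was found in 2.58% of control and 3.99% of KO macrophages at dpi4, a difference of 1.41 points (0.44 to 2.4), and in 19.8% and 25.8% without thinning. At dpi2 Sesn2 was found in 2.76% of control and 2.07% of KO macrophages, a difference of −0.688 points (−1.82 to 0.565), which includes 0. Atf4 was found in 28.1% and 32.6% at dpi2 (88.1% and 91.8% without thinning), a difference of 4.52 points (1.03 to 8.06). Between 29 and 81 macrophages per library had fewer than 2000 UMIs and were left out. None of the other 7 genes had an interval that left out 0 in macrophages at either time.

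In monocytes at dpi2, Ddit3 stood at 48 CPM (1310 UMIs) in the control and 28.3 CPM (412 UMIs) in the KO library. Its ratio of 0.589 (0.526 to 0.658) made it the 1 gene of 7 scored that was lower, and 0 were higher, where 5.28% of all scored genes were higher and 6.57% were lower. The KO monocytes were mostly cluster 10 (Vcan, Dmkn, Il6; 609 of 1012 cells), and the control monocytes mostly cluster 0 (Plac8, Ly6c2, Cxcl10; 1813 of 2572). With the control library's cluster shares the log2 ratio of Ddit3 was −0.43 in place of −0.76, which is within 1.5-fold. Atf4 had a ratio of 1.05 (1.01 to 1.09), Sesn2 1.12 (0.936 to 1.34), Psat1 0.915 (0.774 to 1.08), Asns 0.643 (0.382 to 1.05), Mthfd2 0.758 (0.67 to 0.856) and Shmt2 1.39 (1.06 to 1.81). Within the 3 monocyte clusters Sesn2 was below 1 in each, with ratios from 0.706 to 0.89 and intervals that included 1. With the control library's cluster shares its log2 ratio went from 0.16 to −0.25, that of Shmt2 from 0.47 to 0.09 and that of Mthfd2 from −0.40 to −0.17. Slc7a11 stood at 139 CPM in the control and 438 CPM in the KO library, a ratio of 3.15, and of 2.11 with the control library's cluster shares. Monocytes at dpi4 held too few UMIs for all genes except Atf4, at 204 and 231 CPM.

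In neutrophils at dpi2, 4 genes were scored, 1 was higher and 1 was lower, where 4.89% of all scored genes were higher and 21.2% were lower. The median log2 ratio of all scored genes was −0.30 in this pair, so that ratios are read relative to that shift. Sesn2 was higher, with a ratio of 1.66 (1.24 to 2.25) on 201 and 62 UMIs. When the unnamed cluster 13 was added (480 KO and 89 control cells), a choice made after seeing the data, the ratio of Sesn2 was 1.42 (1.08 to 1.88), inside the limit, so that 0 genes were higher, while Chac1 stayed lower at 0.489 (0.359 to 0.668). After centring, the log2 ratios of Sesn2 and Chac1 were 1.03 and −0.66, and with cluster 13 they were 0.80 and −0.74, so that both genes were then past 1.5-fold with or without that cluster. Chac1 was lower, with a ratio of 0.513 (0.366 to 0.717) on 74 and 74 UMIs, while the share of thinned neutrophils with a Chac1 UMI differed by −1.81 points, KO minus control, with an interval of −4.93 to 1.03 that included 0. Ddit3 had a ratio of 0.711 (0.594 to 0.851), a log2 ratio of −0.49, and −0.19 after centring on the median, and with cluster 13 its ratio was 0.909 (0.785 to 1.06), or 1.11 (0.961 to 1.29) after centring. Atf4 had a ratio of 0.921 (0.808 to 1.05), and its log2 ratio after centring was 0.18, while with cluster 13 its ratio was 1.08 (0.967 to 1.21), or 1.32 (1.19 to 1.48) after centring. Slc7a11 stood at 1279 CPM in the control and 3933 CPM in the KO library. Among thinned neutrophils, Sesn2 was found in 6.49% of control and 13.4% of KO cells (8.59% and 20.4% without thinning), with 167 and 54 shallower cells left out. At dpi4, with 35 KO neutrophils, Ddit3 had a ratio of 0.417 (0.146 to 0.967) on 6 and 54 UMIs and was the 1 gene of 2 scored that was lower, where 4.61% of all 1606 scored genes were higher and 8.03% were lower. The dpi2 neutrophils also differed in median depth, 2308 UMIs in the control and 3428 in the KO library, and in summed markers of neutrophils (55634 and 76886 CPM), monocytes (2538 and 1638 CPM) and eosinophils (169 and 76.4 CPM), whose part in the ratios was not tested.

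In dendritic cells, where Hmox1 had ratios of 9.57 at dpi2 and 6.21 at dpi4 and Slc7a11 of 1.4 and 1.04, 0 of the scored genes were higher and 0 lower at either time, where 4.48% were higher and 4.85% lower among all scored genes at dpi2, and 2.59% and 2.28% at dpi4. The lowest ratio was that of Psat1 at dpi2, 0.694 (0.481 to 0.996), followed by Mthfd2, 0.757 (0.625 to 0.916). In T or NK cells, 1 of the 10 genes was scored at dpi2 and 5 at dpi4, and 0 were higher and 0 lower, where 4.84% and 6.47% of all scored genes were higher and lower at dpi2 and 4.12% and 5.3% at dpi4. Phgdh in T or NK cells had a ratio of 0.897 (0.586 to 1.38) at dpi4, and at dpi2 it was not scored, with 2 and 28 UMIs in 36 and 102 cells. Although Lyz2-Cre does not target these cells, Hmox1 in them stood at 12.9 CPM in the control and 239 CPM in the KO library at dpi2 and at 14.4 and 244 CPM at dpi4, and 3 of 12 scored BACH1 and NRF2 targets were higher and 1 lower at dpi4. The source of these UMIs was not tested.

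In macrophages, the ratios of dpi4 to dpi2 lay farther from 1 than those of KO to control for Psat1, Mthfd2, Asns and Shmt2, but not for Phgdh, with 0.668 (0.447 to 0.999) in control and 1.5 (0.796 to 2.95) in KO. In the control libraries, 0 genes were higher at dpi4 and 6 were lower, where 17.2% of all scored genes were higher and 17.9% were lower. Psat1 had a ratio of dpi4 to dpi2 of 0.337 (0.305 to 0.372), Mthfd2 0.396 (0.36 to 0.436), Asns 0.262 (0.172 to 0.391), Shmt2 0.58 (0.508 to 0.664), Atf4 0.659 (0.637 to 0.682) and Trib3 0.423 (0.24 to 0.732). In the KO libraries, 1 was higher and 5 were lower, where 16.9% were higher and 15.2% were lower. Sesn2 was the higher gene, at 2.28-fold (1.98 to 2.62), and its ratio in the control libraries was 1.04 (0.93 to 1.17). Psat1 (0.434), Mthfd2 (0.5), Asns (0.364), Shmt2 (0.617) and Atf4 (0.609) were lower, as in the control. Ddit3 had ratios of 1.04 in control and 1.42 in KO. The 2 series share no library, but the macrophages at the 2 times were largely different clusters. With the cluster shares of the dpi2 library, Psat1 had log2 ratios of −0.31 in control and −0.61 in KO, Mthfd2 −0.19 and −0.02, Sesn2 in KO 0.25, and Shmt2 turned to 0.40 and 0.28. In control none of the 6 genes stayed 1.5-fold lower, Atf4 was at −0.15, Asns turned to 0.14 and Trib3 to 0.72, and the genes past 1.5-fold were Trib3 and Phgdh (1.2), both higher. In KO, Psat1 and Asns stayed 1.5-fold lower, Phgdh (1.56) was past the limit as higher, and Sesn2 was no longer past it. These values lean on cluster 1, which at dpi4 had 64 control cells, with 3 Trib3, 4 Asns and 5 Phgdh UMIs, and 61 KO cells, with 0, 0 and 2.

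Other genes of the pathway were read from fixed lists in the same libraries. The shares of all scored genes that were higher or lower in each pair are those given above, in macrophages 5.25% and 5.86% at dpi2 and 3.28% and 4% at dpi4. In macrophages at dpi2, 16 of 25 BACH1 and NRF2 targets were higher and 0 lower, with a median log2 ratio of 0.93, and at dpi4 14 of 25 were higher and 0 lower, with a median of 0.63. The study had singled out some of these targets in the same libraries, so the counts are not independent evidence. The largest ratios at dpi2 were those of Slc40a1 (26.1-fold), Hmox1 and Slc7a11. Of the 10 amino acid transporter genes, 7 were scored, and Slc7a11 was the 1 gene higher at each time. All 7 were above 1 at dpi2, with a median log2 ratio of 0.40, and 6 at dpi4, with a median of 0.07, where 47.5% and 52.8% of all scored genes were above 1. In monocytes at dpi2, which were mostly different clusters in KO and control, 7 of 7 were above 1, where 49.3% of all scored genes were, with a median of 0.39 and Slc7a11 again the 1 gene higher. In dendritic cells at dpi2, 7 of 7 were above 1 (median 0.27), where 46.9% of all scored genes were, and in T or NK cells 1 of 3 (median −0.01), where 45% were. At dpi4, 4 of 7 were above 1 in dendritic cells (median 0.01), where 54.4% were, and 2 of 4 in monocytes (median 0.04), where 51.1% were. In neutrophils 2 of 5 were above 1 and both were higher, with a median of −0.20, where 23.8% of all scored genes were above 1 and their median was −0.30. Of the 15 aminoacyl-tRNA synthetase genes, which ATF4 also drives, 0 were higher and 0 lower at either time, with medians of −0.07 and 0.13. Of 18 genes of the other branches of the unfolded protein response, 2 were higher at dpi2, the chaperone gene Hyou1 (1.67-fold) and Dnajb9 (1.65-fold), and 0 at dpi4. Of the same 18, 17 were above 1 at dpi2, with a median log2 ratio of 0.18, and 15 at dpi4, with a median of 0.12, beside the same 47.5% and 52.8% of all scored genes. At dpi2, 7 of 18 were above 1 in monocytes (median −0.04), where 49.3% of all scored genes were, and 7 of 18 in dendritic cells (median −0.01), where 46.9% were. In neutrophils 2 of 17 were above 1 and 2 were lower, with a median of −0.20, where 23.8% of all scored genes were above 1 and their median was −0.30.

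Of 14 scored further ATF4 targets in macrophages, 3 were higher at dpi2: Slc7a11, the autophagy receptor gene Sqstm1 (1.92-fold) and the mTORC1 inhibitor gene Ddit4 (1.73-fold). The first 2 of them are also in the BACH1 and NRF2 list. At dpi4, 3 were higher, among them Gpt2 (1.86-fold), an alanine aminotransferase gene, and Slc7a11, and Nupr1 was lower at 0.593. The list median was 0.05 at dpi2 and 0.20 at dpi4. Of the other serine, glycine and folate genes, Tyms, the thymidylate synthase gene, was lower at dpi2 (0.624) as the 1 gene of 12, and Aldh1l1 was higher at dpi4 (1.87-fold) as the 1 gene of 13. In monocytes at dpi2, 10 of 23 BACH1 and NRF2 targets were higher, and of the further ATF4 targets 2 were higher and 4 lower of 14, where 5.28% of all scored genes were higher and 6.57% lower, and where the KO and control monocytes were mostly different clusters. In neutrophils at dpi2, 19 of 22 BACH1 and NRF2 targets were higher, where 4.89% of all scored genes were higher and 21.2% lower. There, 6 of 9 further ATF4 targets were higher and 1 lower, and the 6, named after their values were seen, were Slc7a11 (3.08-fold), Gdf15 (2.01-fold), Ddit4 (1.96-fold), Ero1l (1.81-fold), Eif4ebp1 (1.60-fold) and Sqstm1 (1.54-fold). Slc7a11 and Sqstm1 are also in the BACH1 and NRF2 list. With cluster 13 added, the same 6 genes were higher, where 6.76% of all scored genes were higher and 23.4% lower, with Gdf15 at 1.71-fold, Eif4ebp1 at 1.80-fold and Sqstm1 at 2.77-fold. The 1 lower gene was then Cebpg, at 0.61 (0.489 to 0.765), or 0.748 (0.599 to 0.937) after centring.

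**Figure D4:**
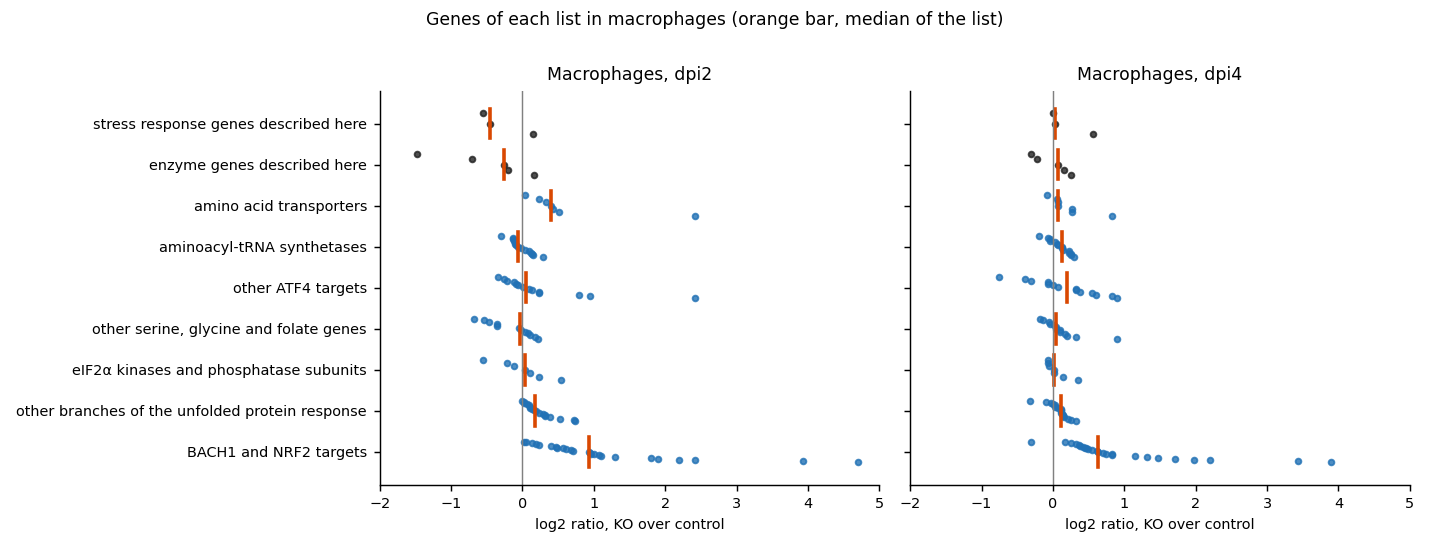
Log2 ratio of KO to control in macrophages at dpi2 and dpi4 for each scored gene (points) of the 10 genes, split by role (black), and of the fixed lists (blue), with the median of each list as an orange bar. The BACH1 and NRF2 targets have medians of 0.93 and 0.63, while the medians of the other lists lie between −0.45 and 0.40.

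The 4 kinases that act on eIF2α were detected in macrophages of both genotypes. Eif2ak1, the heme-regulated kinase, stood at 29.6 CPM in the control and 30.2 CPM in the KO library at dpi2 and at 36.3 and 34.8 CPM at dpi4, with ratios of 1.02 (0.935 to 1.12) and 0.959 (0.898 to 1.02). Eif2ak2, the kinase of double-stranded RNA, had a dpi2 ratio of 0.685 (0.644 to 0.727) and a dpi4 ratio of 0.95 (0.906 to 0.997), and in monocytes at dpi2 it was lower, 183 CPM in the control and 94.6 CPM in the KO library (log2 ratio −0.95), where 6.57% of all scored genes were lower. With the control library's cluster shares that log2 ratio was −0.31, which is within 1.5-fold. In dendritic cells Eif2ak2 was lower at both times, by a ratio of 0.553 (0.468 to 0.652) at dpi2, where 4.85% of all scored genes were lower, and of 0.628 (0.532 to 0.741) at dpi4, where 2.28% were. In neutrophils at dpi2, where 21.2% of all scored genes were lower, Eif2ak2 (0.27) and Eif2ak3 (0.598) were both lower. Centred on the median log2 ratio of −0.30 in that pair, Eif2ak2 (log2 ratio −1.59) stayed past 1.5-fold and Eif2ak3 (−0.44) did not, but with cluster 13 added the centred log2 ratio of Eif2ak3 was −0.69, past 1.5-fold. Eif2ak3, the kinase of the endoplasmic reticulum, had ratios of 1.45 (1.28 to 1.64) and 1.1 (0.996 to 1.21), and Eif2ak4, the sensor of uncharged tRNA, 0.922 (0.785 to 1.08) and 1.01 (0.891 to 1.14). None of the 4 reached 1.5-fold in macrophages at either time, while their activity, which is set by phosphorylation, was not measured. Nfe2l2, which encodes NRF2, stood at 202 and 253 CPM at dpi2 and at 404 and 327 CPM at dpi4 in the control and KO macrophages.

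By GENCODE annotation (GRCm38), Ddit3 (chr10:127290774-127296288, plus strand) overlaps Mars and Gm4189 on the opposite strand and a second entry of its own name, Sesn2 (chr4:132492032-132510501, minus strand) overlaps Gm12981 and Mthfd2 (chr6:83305691-83325908, minus strand) overlaps Gm43890 on the same strand. Phgdh (chr3:98313170-98339990, minus strand) has 1 annotated pseudogene. On the opposite strand, Shmt2 (chr10:127517123-127522444, minus strand) overlaps Ndufa4l2 and Psat1 (chr19:15904678-15947337, minus strand) overlaps Gm3329. Reads shared with a locus on the same strand or with a pseudogene could be lost or split in counting. How far the values of these 6 genes were affected by any of these loci was not tested.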

How the data were processed

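Per the labels, the authors processed the reads with Cell Ranger 6.1.2 and the mm10 genome. The deposited matrices hold raw UMI counts per gene and barcode, not normalized, and were used as deposited. Barcodes with under 10% mitochondrial UMIs and at least 500 genes were kept, and the highest Scrublet scores (0.8% per 1000 barcodes, 100 to 289 per library) were removed, in place of the miQC and scDblFinder of the study. Libraries were clustered together without integration (scanpy 1.11.5; 2000 variable genes without the listed genes, 30 components, 15 neighbours, leidenalg 0.10.2 at resolution 1). Classes came from 96 marker genes, of which 94 matched. UMIs were added up per class and library and given as CPM with exact Poisson intervals, ratios with exact conditional binomial intervals, shares with Clopper-Pearson and differences of shares with Newcombe intervals. A count of 0 allows up to 3 counts. UMI levels were not divided by length. From 2 to 14 barcodes were shared between pairs of libraries. The ratio intervals and the size rule were tested on simulated counts that varied by counting error only. The 10 genes, the lists and the size rule were chosen with earlier results of these data known. The 10 genes and the kinases are all named, and of other lists the 3 largest ratios past the rule in macrophages.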

Additional observations from a re-analysis of the deposited data

Results flagged for a closer look

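In macrophages Sesn2 pointed in opposite directions at the 2 times. The KO over control ratio was 0.6791 at dpi2, with an interval of 0.5823 to 0.7907, and 1.482 at dpi4, with an interval of 1.345 to 1.634. Both were inside the 1.5-fold limit, and the macrophages at the 2 times were largely different clusters. In cluster 1 the dpi2 ratio was 0.635. At dpi4 that cluster held 8.91 CPM in control and 6.86 CPM in KO, on 13 and 11 UMIs, too few to be scored. Of the 7 macrophage clusters scored at dpi4, 6 were above 1. Within dpi2 Sesn2 also pointed in opposite directions in macrophages, at 0.6791, and in neutrophils, at 1.662 (1.245 to 2.247). With the unnamed cluster 13 added to the neutrophils, the latter was 1.42 (1.08 to 1.88), inside the 1.5-fold limit and still above 1. Centred on the median of all scored genes, the neutrophil ratio with that cluster was 1.74 (1.33 to 2.31). Among macrophages thinned to 2000 UMIs, the dpi2 difference in the share of cells with a Sesn2 UMI had an interval that included 0. With 1 library per group, neither difference between the pairs was tested.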

How the results depend on the processing

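Every count rests on 1 library per group, and on few molecules for Phgdh, Asns, Trib3 and Chac1. No paired analysis was possible because each group held 1 library and the labels carry no replicate numbers; for the same reason no library could be left out. The alternatives moved these counts of genes past the rule. With a 2-fold limit, the count in macrophages at dpi2 went from 2 to 1, in monocytes from 1 to 0, in neutrophils from 2 to 0, and for dpi4 over dpi2 in macrophages from 6 to 4 in control and from 6 to 3 in KO. With at least 200 UMIs, macrophages at dpi2 went from 2 to 0, neutrophils from 2 to 1, and dpi4 over dpi2 from 6 to 4 in control and from 6 to 5 in KO, and Ddit3 in neutrophils at dpi4, with 6 and 54 UMIs, would not be scored. With cluster 13 added, chosen after seeing the data, neutrophils at dpi2 went from 2 to 1 (lower). With monocytes and macrophages pooled, the dpi2 count was 4, all lower in KO, where 5.33% of all scored genes were higher and 6% lower. With each library clustered by itself, macrophages at dpi4 and dendritic cells at dpi2 went from 0 to 1 (higher). With the mean of each cell's own CPM, macrophages at dpi4 and dendritic cells at dpi2 went from 0 to 1 (lower), and monocytes at dpi2 from 1 to 2. With the dpi2 library's cluster shares, where the fold alone was used, the counts for dpi4 over dpi2 went from 6 to 2 in control, both higher, and from 6 to 3 in KO, and the log2 ratios of Trib3 (0.72), Asns (0.14) and Shmt2 (0.40) in control and Shmt2 (0.28) in KO turned positive. The number of genes whose share difference left out 0 went from 2 to 4 in macrophages at dpi2 without thinning, and from 1 to 2 at dpi4 with 5000 UMIs. Of 602 values of single genes under an alternative, 549 stayed within their counting interval, 49 left it without a change of sign in a value past the rule, and 4 past the rule changed sign, those just named. Among values not past the rule, 33 changed sign, 21 of them within the interval. The cause was not tested.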
